A study of Mus musculus with 22 samples.

Results

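The genes described here make cholesterol, sense it, and move it into, through and out of the cell, with 3 genes of fatty acid synthesis and desaturation that share their control. The list named 38 genes, and each was read from the probe set that names it alone with the highest mean over all arrays. Such a probe set was found for 35 of the 38, out of 18193 genes measured in this way, and Acat2, Nr1h2 and Soat1 were not analysed here. By role the 35 fall into 17 genes of sterol synthesis, 6 genes of SREBP control, 9 genes of the LXR response, sterol transport and efflux, and 3 fatty acid genes. The rule for membership uses no measured value, although the list was drawn up with earlier results of these data known.

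Gene expression was measured on 22 Affymetrix whole-genome mouse arrays in CD11c+CD8α- dendritic cells (DCs) sorted from the pancreas, to compare NOD mice, a strain that develops autoimmune diabetes, with C57BL/6 mice, which do not. All mice were female and 5 weeks old, before diabetes, and each sample was made from 10 pooled pancreases. The steady state groups were lysed straight after sorting (C57BL/6, n = 4; NOD, n = 3). The other groups were kept for 18 h in medium with PBS (C57BL/6, n = 4; NOD, n = 4) or with 1 µg/ml LPS, a bacterial product that activates DCs (C57BL/6, n = 3; NOD, n = 4). The design text calls the cultures another experiment, whereas the methods divide each sort between direct lysis and culture, so handling and culture cannot be told apart in comparisons with steady state. Replicates are separate pools, and the small number of arrays limits the precision of every value.

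Cells make cholesterol from acetyl-CoA through the mevalonate pathway and a series of sterol intermediates. When membrane cholesterol falls, SCAP escorts the SREBP transcription factors out of the endoplasmic reticulum, and they switch on the genes of synthesis and uptake, while INSIG proteins hold SCAP back when sterols are plentiful. Oxysterols, among them 25-hydroxycholesterol made by CH25H, hold SREBP back and activate the LXR receptors, which raise the export pumps ABCA1 and ABCG1. In macrophages and DCs these systems decide how much lipid is made, taken up from debris and released.

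Values are log2 expression after RMA. A difference is given on the log2 scale with the moderated standard error (SE) of limma, and calls were made below 0.1 after Benjamini-Hochberg adjustment across all 45037 probe sets. Probe sets of different genes bind with different strength, so levels are compared within a gene only.

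The stretches before the start of 4 sterol genes that fell in C57BL/6 culture, and of Ch25h, the member with the largest rise, are shown because CCAAT was found in nearly all synthesis genes with a window and not in that of Ch25h. They are 150 bases long, end at the last base before the annotated start, and come from RefSeq (GRCm38.p6), with 5′ to 3′ on the gene's own strand. Capitals mark matches of CCAAT, the box read by NF-Y, a factor that works beside SREBP, on either strand, and of TCACNCCAC, the core of a sterol regulatory element.
Hmgcs1, chr13:119690201-119690350, strand +: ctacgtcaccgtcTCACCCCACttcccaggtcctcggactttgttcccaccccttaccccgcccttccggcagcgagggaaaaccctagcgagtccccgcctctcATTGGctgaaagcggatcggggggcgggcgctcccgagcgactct
Lss, chr10:76531455-76531604, strand +: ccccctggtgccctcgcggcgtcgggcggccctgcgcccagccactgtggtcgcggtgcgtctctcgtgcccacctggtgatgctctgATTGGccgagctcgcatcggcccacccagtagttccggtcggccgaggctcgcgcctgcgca
Cyp51, chr5:4104698-4104847, strand -: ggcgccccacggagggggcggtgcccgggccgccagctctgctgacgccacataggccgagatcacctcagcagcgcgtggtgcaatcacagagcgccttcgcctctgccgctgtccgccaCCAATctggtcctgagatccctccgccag
Tm7sf2, chr19:6067851-6068000, strand -: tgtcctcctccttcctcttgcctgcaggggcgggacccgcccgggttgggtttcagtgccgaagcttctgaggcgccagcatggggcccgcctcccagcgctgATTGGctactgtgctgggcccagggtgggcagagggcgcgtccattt
Ch25h, chr19:34475149-34475298, strand -: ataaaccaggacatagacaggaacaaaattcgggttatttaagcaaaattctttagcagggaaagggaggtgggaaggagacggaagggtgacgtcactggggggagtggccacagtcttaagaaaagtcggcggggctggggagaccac

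In windows from 250 bases before to 50 bases after the start, CCAAT on either strand was found in 14 of 15 sterol synthesis genes that had a window, in 4 of 5 genes of SREBP control and in 3 of 8 genes of the LXR, transport and efflux group. The same letters were in 37.4% of all 32851 windows and in 42.0% of the 14453 genes on the array with a window. GGGCGG, the box read by Sp1, on either strand, was in 14 of 15 sterol synthesis genes and 57.3% of array genes. TCACNCCAC was in Hmgcs1 alone among the members, at positions -137 to -129 from its start, and in 1.24% of all windows. A gene with several windows counts if any of them holds the letters, and no matches of different motifs overlapped in the members (0 pairs). In Ch25h neither CCAAT nor the sterol element core was found, which says only that these letters are not in this window. Mvk and Npc2, called higher with culture in both strains, held CCAAT too. Abca1, Apoe and Scap, called lower in both, did not. The matches describe the sequence only.

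More of these genes were called with culture than with strain or LPS. In C57BL/6, 26 members were lower and 7 higher after 18 h with PBS than at steady state, and in NOD 22 were lower and 8 higher (limma). Culture moved most genes on the array, so these counts have to be read against a high background. Of all genes, 76.9% were called in C57BL/6 (32.3% lower, 44.6% higher) and 71.6% in NOD (30% lower, 41.6% higher). The median difference of the members was -0.77 in C57BL/6 and -0.80 in NOD, against 0.17 and 0.16 over all genes. The strains have no arrays in common here, and 22 members were lower in both and 6 higher in both.

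**Figure D1:**
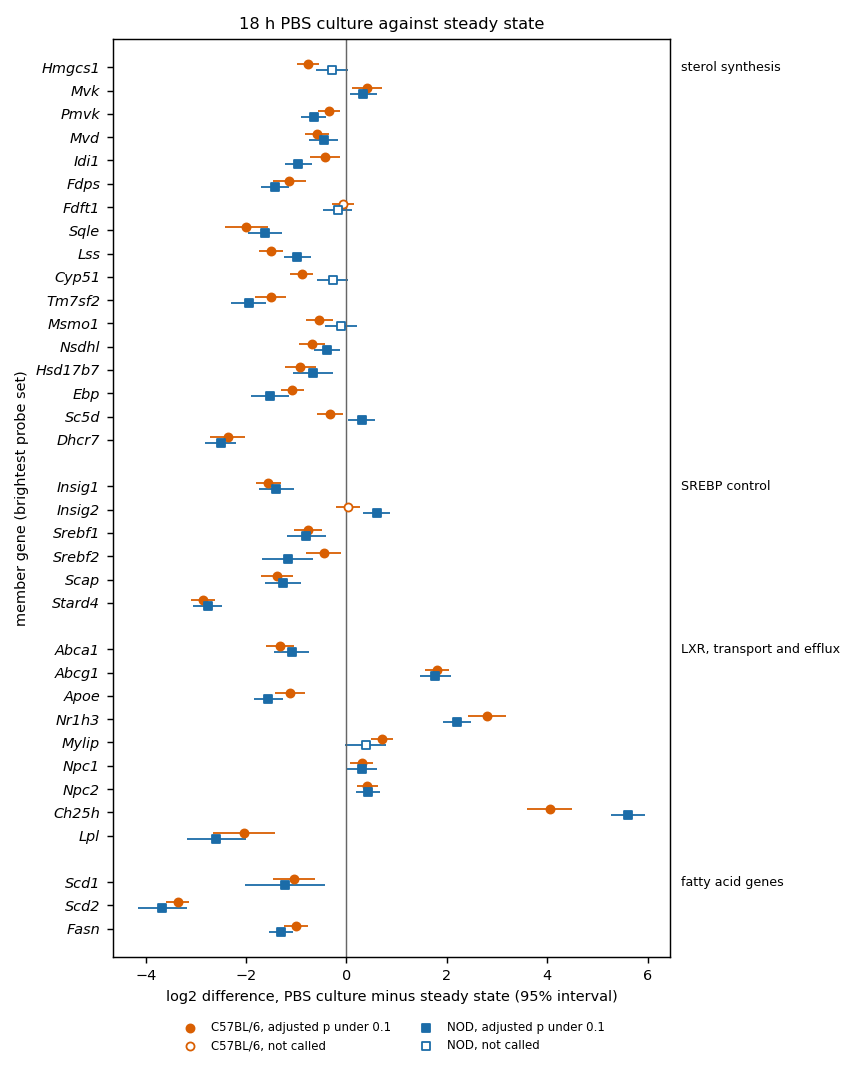
Log2 difference of PBS culture minus steady state for the 35 members, grouped by role, in C57BL/6 (circles) and NOD (squares), with 95% confidence intervals, filled marks for calls at an adjusted p under 0.1 and a line at 0 for no difference. Most synthesis and SREBP control genes lie left of 0 and Abcg1, Nr1h3 and Ch25h far to the right.

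Of the 17 sterol synthesis genes, 15 fell in C57BL/6 and 11 in NOD. Dhcr7 changed most, followed by Sqle in C57BL/6 and Tm7sf2 in NOD. Dhcr7 makes cholesterol from 7-dehydrocholesterol. It read 10.31, 10.31, 10.04 and 10.11 in C57BL/6 at steady state and 7.94, 8.22, 7.42 and 7.71 after PBS culture, and in NOD 10.68, 10.53 and 10.34 against 8.26, 7.87, 8.07 and 7.81. Every cultured array was below every steady state array by more than 1 log2 unit, and Dhcr7 fell by 2.37 on the log2 scale (SE 0.16, limma adjusted p = 1.23e-07), or 5.17-fold, in C57BL/6 and fell by 2.51 (SE 0.14, adjusted p = 5.10e-08), or 5.70-fold, in NOD.

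Sqle, which oxidises squalene and is a rate-limiting step after HMG-CoA reductase, gave 9.44, 9.47, 9.40 and 9.78 at steady state and 7.42, 6.97, 8.01 and 7.73 after culture in C57BL/6. In NOD it gave 9.63, 9.37 and 9.43 against 7.74, 7.64, 7.77 and 8.26. The groups were apart in both strains, with differences of -1.99 (SE 0.19) in C57BL/6 and -1.62 (SE 0.16) in NOD. Lss, lanosterol synthase, fell in both strains as well, with differences of -1.51 (SE 0.11) in C57BL/6 and -0.98 (SE 0.12) in NOD. Further falls, given as the C57BL/6 and then the NOD difference, were those of Tm7sf2, a sterol C14 reductase (-1.51 and -1.95), and Ebp, the sterol isomerase (-1.08 and -1.53). Fdps, which makes farnesyl diphosphate, the branch point to sterols and protein prenylation, fell too (-1.14 and -1.43). Smaller falls in both strains, with differences from -0.35 for Pmvk in C57BL/6 to -0.96 for Idi1 in NOD, were seen for Pmvk, Mvd, Idi1, Nsdhl and Hsd17b7.

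Hmgcs1, the synthase that feeds HMG-CoA into the pathway, fell in C57BL/6 from 11.96, 11.90, 11.88 and 12.04 to 11.03, 11.27, 11.21 and 11.21. In NOD it read 11.95, 11.75 and 11.63 at steady state and 11.45, 11.26, 11.48 and 11.80 after culture, where the groups overlap. The C57BL/6 difference of -0.76 (SE 0.10, limma adjusted p = 3.71e-05) was called and the NOD difference of -0.28 (SE 0.15, adjusted p = 0.117) was not, with a 95% interval of -0.60 to 0.04. The difference between these changes was 0.48 (adjusted p = 0.138) and not called, but 2 other probe sets of Hmgcs1 were called in that test (0.91 and 0.87). In NOD 3 other probe sets of Hmgcs1 were called lower with culture (-0.48, -0.65 and -0.81).

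Not all synthesis genes followed. Mvk, mevalonate kinase, rose by 0.41 (SE 0.14, limma adjusted p = 0.0186) in C57BL/6 and by 0.33 (SE 0.12, adjusted p = 0.0363) in NOD. Fdft1, squalene synthase, was not called in either strain (-0.07 and -0.17), and its probe sets disagreed, since one further probe set was called lower (-0.94 in C57BL/6 and -1.04 in NOD) and the other two higher (0.57 to 0.66). In NOD Cyp51 (-0.28) and Msmo1 (-0.11), which help strip methyl groups from lanosterol, were not called either, whereas in C57BL/6 they fell (-0.89 and -0.54). Sc5d, the sterol C5 desaturase, fell by 0.32 in C57BL/6 and rose by 0.30 in NOD. Its dimmer probe sets were called lower in NOD (-1.14 and -2.07), so the direction of Sc5d in NOD depends on the probe set. In C57BL/6 further probe sets of Mvd and Hsd17b7, and in NOD one of Fdps with a mean level of 4.59, were called in the opposite direction to the brightest one.

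Of the 6 genes of SREBP control, 5 fell in both strains. Insig1, itself a target of SREBP, read 11.20, 11.35, 11.32 and 11.46 in C57BL/6 at steady state and 9.77, 9.81, 9.58 and 9.95 after culture. In NOD it read 11.27, 11.03 and 11.18 against 10.13, 9.46, 9.60 and 9.85. Both pairs of groups were apart, with differences of -1.55 (SE 0.11) and -1.40 (SE 0.16). Stard4, a sterol carrier induced when cholesterol is low, read 10.27, 10.26, 10.05 and 10.42 in C57BL/6 at steady state and 7.39, 7.27, 7.42 and 7.51 after culture. In NOD it went from 10.28, 10.12 and 10.24 to 7.42, 7.39, 7.28 and 7.69. Its difference of -2.85 (SE 0.11, limma adjusted p = 1.68e-09), or 7.23-fold, in C57BL/6 and -2.77 (SE 0.13, adjusted p = 9.94e-09), or 6.81-fold, in NOD was the largest of the synthesis and SREBP control genes. The other probe sets of Stard4 were called lower too (-2.06 to -2.93).

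Scap, the escort, fell in both strains (-1.38, SE 0.14, and -1.26, SE 0.16). Srebf1 and Srebf2, which encode the SREBP factors, fell in C57BL/6 (-0.77 and -0.46) and in NOD (-0.80 and -1.17). Srebf1 went from 10.29, 9.89, 10.12 and 10.53 to 9.42, 9.45, 9.48 and 9.42 in C57BL/6 and from 10.22, 9.50 and 9.81 to 9.26, 8.77, 9.16 and 8.98 in NOD. For Srebf1 the groups were apart, whereas for Srebf2 in C57BL/6 they overlapped (10.54 to 11.11 against 10.21 to 10.79). Insig2, the form of INSIG that is not raised by SREBP, went the other way in NOD, from 9.32, 9.42 and 9.29 to 9.92, 9.76, 10.14 and 9.96, with no overlap. Its rise there was 0.60 (SE 0.12, limma adjusted p = 0.00142), and in C57BL/6 its difference was 0.03 (95% interval -0.21 to 0.27). In C57BL/6, however, both other probe sets of Insig2 were called lower (-0.77 and -0.74), and in NOD neither was called.

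The LXR, transport and efflux genes split. Of 9, 6 rose (66.7%) and 3 fell (33.3%) in C57BL/6, and 5 rose (55.6%) and 3 fell (33.3%) in NOD. Over all genes 44.6% rose and 32.3% fell in C57BL/6, and 41.6% and 30% in NOD. A split of this kind is thus not particular to the group. Ch25h, which makes 25-hydroxycholesterol, changed most. It read 8.30, 8.73, 8.42 and 9.47 in C57BL/6 at steady state and 12.77, 12.83, 12.75 and 12.75 after culture. In NOD it went from 7.48, 7.38 and 7.25 to 12.77, 13.09, 13.30 and 12.73. All cultured arrays were more than 3 log2 units above all steady state arrays, a rise of 4.05 (SE 0.21, limma adjusted p = 1.50e-08) in C57BL/6 and 5.60 (SE 0.15, adjusted p = 2.17e-10) in NOD, which is 16.5-fold and 48.6-fold.

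Nr1h3, which encodes LXRα, rose from 9.38, 8.89, 9.08 and 9.08 to 11.87, 11.68, 12.42 and 11.67 in C57BL/6. In NOD it rose from 8.81, 9.10 and 8.94 to 11.35, 11.11, 11.01 and 11.17. The rises were 2.80 (SE 0.17) and 2.21 (SE 0.13), with the groups well apart. Abcg1, which hands cholesterol to HDL, rose by 1.80 (SE 0.11) and 1.77 (SE 0.14). It moved from 10.64, 10.51, 10.80 and 10.69 to 12.54, 12.30, 12.57 and 12.41 in C57BL/6 and from 10.01, 10.10 and 10.28 to 11.95, 12.01, 12.03 and 11.59 in NOD. Its dimmer probe set rose too, by 0.50 and 0.86.

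Npc2 and Npc1, which pass cholesterol out of the lysosome, rose by 0.42 and 0.30 in C57BL/6 and by 0.43 and 0.31 in NOD. Mylip, the ligase that LXR raises to destroy the LDL receptor, rose by 0.71 (SE 0.10) in C57BL/6, from 9.84, 9.74, 9.86 and 9.99 to 10.61, 10.49, 10.67 and 10.49. In NOD it read 10.04, 9.67 and 10.01 against 10.67, 10.08, 10.51 and 9.89, where the groups overlap, and the difference of 0.38 (SE 0.19, limma adjusted p = 0.101) was not called.

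Abca1, the other export pump, moved against Abcg1. It fell from 12.59, 12.46, 12.55 and 12.58 to 11.42, 10.94, 11.46 and 11.09 in C57BL/6, and from 12.58, 12.33 and 12.57 to 11.69, 11.37, 11.51 and 11.04 in NOD. The groups were apart, with a difference of -1.32 (SE 0.13, limma adjusted p = 3.19e-06) in C57BL/6 and -1.09 (SE 0.16, adjusted p = 0.000108) in NOD, and both other probe sets of Abca1 were called lower too (-0.97 to -1.34). Apoe, the apolipoprotein that carries lipid away from macrophages, read 14.07, 14.11, 14.06 and 13.68 against 12.86, 12.70, 13.17 and 12.71 in C57BL/6 and 14.05, 14.25 and 14.17 against 12.59, 12.51, 12.45 and 12.85 in NOD. It fell in both strains (-1.12, SE 0.14, and -1.56, SE 0.13).

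Lpl, the lipase that frees fatty acids from lipoproteins, read 13.03, 13.32, 13.48 and 13.49 in C57BL/6 at steady state and 11.52, 10.60, 12.19 and 10.87 after culture. In NOD it read 13.08, 13.06 and 13.19 against 11.07, 10.01, 9.93 and 11.07. The groups were apart, although the cultured arrays spread over more than 1 log2 unit in each strain (differences of -2.04, SE 0.28, and -2.59, SE 0.27).

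The 3 fatty acid genes fell in both strains. The differences were -1.01 (SE 0.11) and -1.31 (SE 0.11) for Fasn, fatty acid synthase, and -1.04 (SE 0.19) and -1.22 (SE 0.36) for Scd1, a stearoyl-CoA desaturase, which in NOD spread from 8.19 to 9.65 at steady state and from 6.82 to 8.28 after culture. Scd2, a related desaturase, read between 9.18 and 9.72 at steady state in both strains and between 5.25 and 6.53 after PBS culture. Its differences of -3.37 and -3.67 end near or below the lower quartile of the arrays (6.03 to 6.36), and those of its other probe sets were -0.83 to -2.03, so the size is uncertain.

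**Figure D2:**
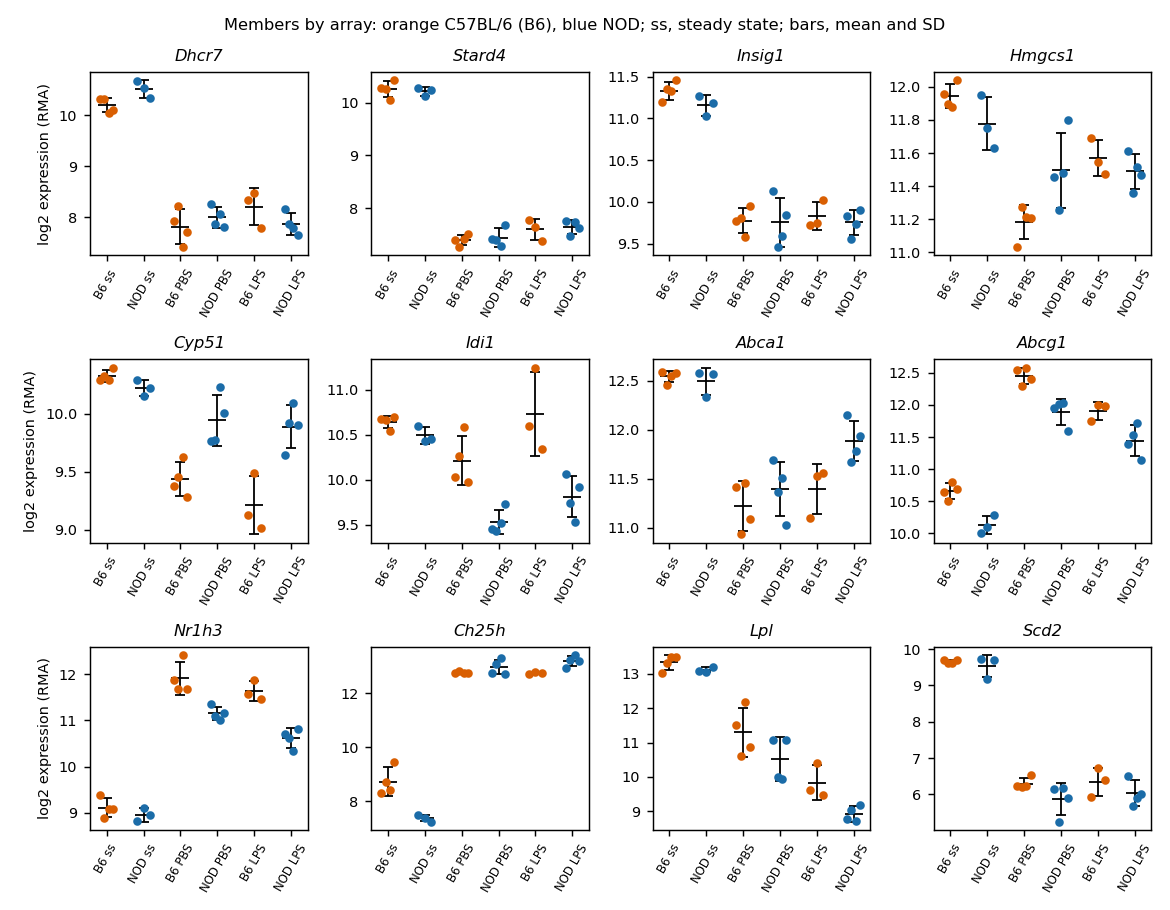
Log2 expression on each of the 22 arrays for 12 members, in C57BL/6 (orange, B6) and NOD (blue), at steady state (ss) and after 18 h with PBS or LPS, where each point is 1 array, bars give the group mean and SD, and each panel has its own scale that does not start at 0. Dhcr7, Stard4, Insig1, Lpl and Scd2 dropped and Abcg1, Nr1h3 and Ch25h climbed between steady state and culture.

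Other genes of the same systems were read in the same way. Their lists were written from general knowledge but with earlier results of these data known, so they are not independent of the data. Of 22 sterol and SREBP-linked genes listed, 18 had a probe set of their own. Of 18 further sterol and SREBP-linked genes, 12 were lower and 3 higher in C57BL/6, and 14 lower and 2 higher in NOD. Fads1, a fatty acid desaturase (-3.61 in C57BL/6 and -3.23 in NOD), and Elovl5, an elongase (-2.20 and -2.70), fell. Tmem97, a sterol-regulated protein that binds NPC1 (-1.28 and -1.45), and Mbtps1, the protease that makes the first cut in SREBP (-1.80 and -1.88), fell too. Of 19 further uptake, transport and LXR-linked genes, 8 were lower and 6 higher in C57BL/6, and 9 lower and 6 higher in NOD. Over all genes 32.3% were lower and 44.6% higher in C57BL/6, and 30% lower and 41.6% higher in NOD. The counts of the uptake list were not far from these shares. Cyp27a1, the sterol 27-hydroxylase (-3.97 and -3.88), and Scarb1, the HDL receptor (-1.70 and -1.83), fell. Nceh1, which frees stored cholesterol esters, rose by 1.82 and 1.23, and Plin2, the lipid droplet coat, by 0.83 and 0.94.

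Markers of other cells moved with culture too, and their part in these results was not tested. Beside these counts stand the shares of all genes, 32.3% lower and 44.6% higher in C57BL/6 and 30% and 41.6% in NOD. Of 11 macrophage markers 8 were lower and 1 higher in C57BL/6, and 7 lower and 1 higher in NOD, with the largest falls at Cd163 (-5.42 and -4.72) and Mrc1 (-4.47 and -3.62). Their mean level per array went from between 12.8 and 13.0 to between 11.3 and 11.6 in C57BL/6, and from between 12.5 and 12.7 to between 11.2 and 11.5 in NOD. All 5 acinar markers were lower in both strains, with a mean level of 12.8 to 13.8 at steady state and 8.25 to 12.3 after PBS culture. Of 14 cell cycle genes 12 were lower in C57BL/6, and in NOD 11 were lower and 2 higher. Of 10 conventional DC markers 5 were higher and 4 lower in C57BL/6, and 2 higher and 4 lower in NOD. H2-Ab1, Itgam and Itgax, which encodes CD11c, were lower in both strains, and Ccr7 and Fscn1 were higher in both. The mean of the 10 DC markers lay between 11.3 and 11.8 on all 22 arrays. No marker of these lists had a group mean below the arrays' lower quartile at steady state. In sorted bulk samples fewer cells of a type and less RNA per cell cannot be told apart.

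With LPS on top of culture, few members were called. In C57BL/6 no member was called with limma, against 1.81% of all genes (0.945% higher, 0.868% lower), and 10 of 35 had an unadjusted p under 0.05 (5 higher, 5 lower), as did 10.9% of all genes. In NOD 2 were called, both lower, which is 5.71% of the members, against 4.4% of all genes (2.46% lower, 1.93% higher). The PBS arrays of each strain are shared with the culture comparison.

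Lpl had the largest difference with LPS among the members in both strains. In NOD it read 11.07, 10.01, 9.93 and 11.07 with PBS and 8.76, 9.05, 8.71 and 9.18 with LPS, without overlap, a difference of -1.59 (SE 0.26, limma adjusted p = 0.00996). In C57BL/6 it read 11.52, 10.60, 12.19 and 10.87 with PBS and 9.62, 10.41 and 9.47 with LPS. These groups did not overlap either, but the difference of -1.46 (SE 0.36, adjusted p = 0.131) was not called. With the replicate number as a block, which treats arrays of equal number as pairs, it was called (-1.39, adjusted p = 0.0486).

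Nr1h3 fell by 0.54 on the log2 scale (SE 0.13, limma adjusted p = 0.0555) in NOD, from 11.35, 11.11, 11.01 and 11.17 to 10.71, 10.61, 10.33 and 10.82, again without overlap. This call was lost (adjusted p from 0.130 to 0.142) without NOD PBS replicate 1 or 4 or NOD LPS replicate 2 or 3. Abcg1 differed by -0.55 in C57BL/6 (adjusted p = 0.106) and -0.45 in NOD (adjusted p = 0.169), neither called. The paired fit called 6 members in NOD, adding Abcg1 (-0.45, adjusted p = 0.0239), Npc1 (-0.35, adjusted p = 0.0658), Abca1 (0.48, adjusted p = 0.0581) and Scd1 (0.85, adjusted p = 0.0896), and 2 in C57BL/6, Lpl and Scd1 (0.60, adjusted p = 0.0787). In that fit the share of all genes called was also larger, 10.4% in NOD and 2.41% in C57BL/6. A dimmer probe set of Scd1 was called higher in C57BL/6 without pairing (0.94, adjusted p = 0.0513).

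No gene of synthesis or SREBP control was called with LPS in either strain when each strain was fitted by itself with all probe sets kept. In 1 fit of all 22 arrays, which called 4.93% of all genes in C57BL/6, Msmo1 was called lower (-0.63, limma adjusted p = 0.0188) and Hmgcs1 higher (0.39, adjusted p = 0.0807) in that strain, and Msmo1 was also called without the less bright probe sets (adjusted p = 0.0951). The estimates ran from -0.63 (Msmo1) to 0.52 (Idi1) in C57BL/6 and from -0.42 (Sqle) to 0.28 (Idi1) in NOD. Stard4 differed by 0.20 in both strains, with 95% intervals of -0.09 to 0.50 in C57BL/6 and -0.06 to 0.47 in NOD. Insig1 differed by 0.05 (-0.25 to 0.36) and 0.00 (-0.33 to 0.33), intervals that leave out changes as large as its fall in culture. Ch25h, already high after PBS, differed by -0.02 (-0.27 to 0.22) in C57BL/6 and 0.22 in NOD. No member was called in the test of whether LPS acted differently by strain (limma, against 0.022% of all genes, 0.0165% more positive and 0.0055% more negative in NOD). Of 35 members 3 had an unadjusted p under 0.05, all more negative in NOD, as did 3.44% of all genes (2.11% more negative). The fit with the replicate block called no member either.

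**Figure D3:**
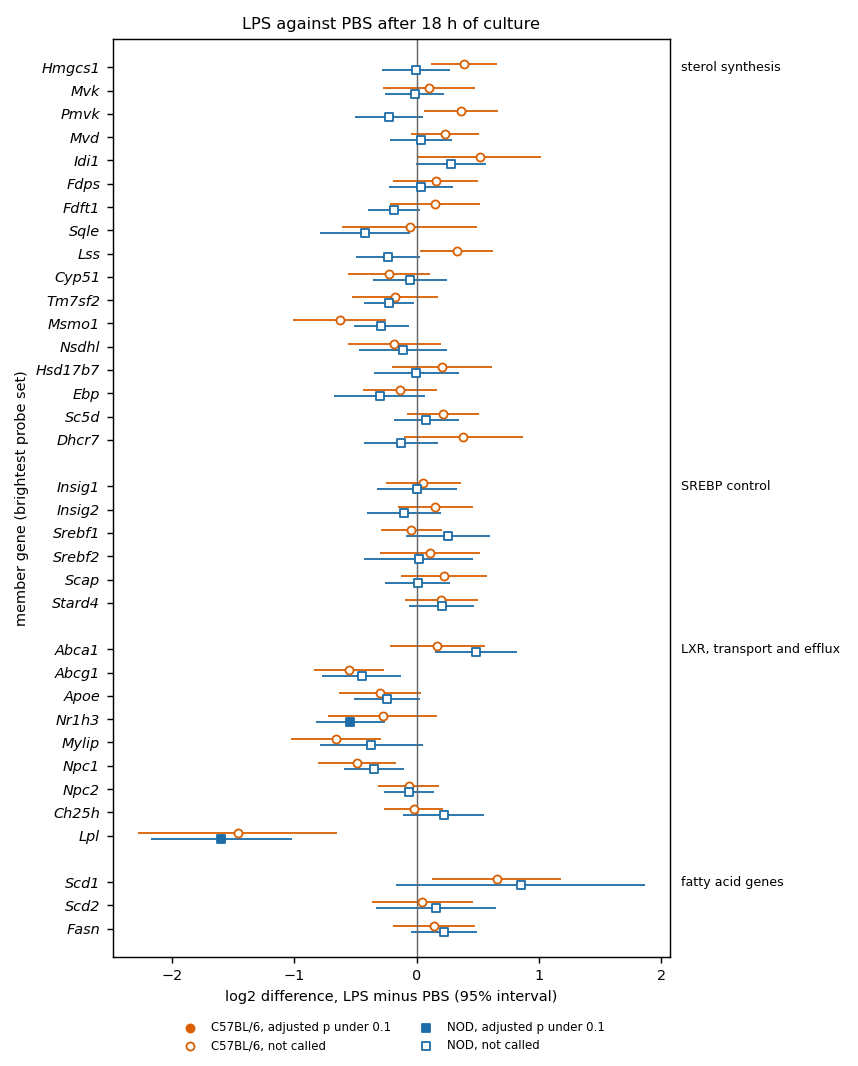
Log2 difference of LPS minus PBS for the 35 members after 18 h of culture, grouped by role, in C57BL/6 (circles) and NOD (squares), with 95% confidence intervals and filled marks for calls at an adjusted p under 0.1. Lpl lies farthest left in both strains, and the filled marks are Lpl and Nr1h3 in NOD.

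Among the wider lists, Pparg, a nuclear receptor that raises lipid uptake genes, fell with LPS in both strains (-0.87 in C57BL/6 and -0.93 in NOD). So did Lipa, the lysosomal lipase that frees cholesterol from its esters (-0.83 and -0.91), and Nceh1 (-0.98 and -0.79). Of 11 macrophage markers, 3 were lower with LPS in C57BL/6 (0.868% of all genes), and 5 lower and 1 higher in NOD (2.46% and 1.93% of all genes). Their part in the falls of Lpl and Nr1h3 was not tested.

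Between strains at steady state, 2 of 35 members were called, both lower in NOD, which is 5.71% of the members against 15.2% of all genes (8.35% lower, 6.87% higher). The share was thus below that of the array. Ch25h read 8.30, 8.73, 8.42 and 9.47 in C57BL/6 and 7.48, 7.38 and 7.25 in NOD, a difference of -1.36 (SE 0.23, limma adjusted p = 0.00355). Abcg1 read 10.64, 10.51, 10.80 and 10.69 against 10.01, 10.10 and 10.28, a difference of -0.53 (SE 0.11, adjusted p = 0.00969). For both genes every NOD array was below every C57BL/6 array. No gene of sterol synthesis or SREBP control was called, among them Hmgcs1 (-0.17, 95% interval -0.40 to 0.07), Insig1 (-0.17, -0.40 to 0.06) and Stard4 (-0.04, -0.28 to 0.20). Dhcr7 (0.32, adjusted p = 0.115), Ebp (0.30, adjusted p = 0.118) and Mvk (0.29, adjusted p = 0.111) were above C57BL/6 in every NOD array and were not called. The same held for Pmvk (10.69 to 10.73 in NOD against 10.48 to 10.61). Cyp51, not called either, was below C57BL/6 in every NOD array, though barely (10.151 to 10.288 against 10.289 to 10.398).

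With the replicate number as a block, 5 members were called at steady state, and 20.4% of all genes. That fit added Tm7sf2 (0.40, limma adjusted p = 0.0468) and Ebp (0.34, adjusted p = 0.0824) as higher and Srebf1 (-0.40, adjusted p = 0.0660) as lower in NOD. Dimmer probe sets of Cyp51 (-1.28), Hmgcs1 (-0.51), Hsd17b7 (0.36), Sc5d (1.05) and Scd2 (0.99) were called at steady state where the brightest was not. In this comparison 12 of 14 cell cycle genes, 4 of 5 NK cell markers and 3 of 10 conventional DC markers were lower in NOD, with 2 of 11 macrophage markers, and their part was not tested. Of the wider lists 3 of 18 sterol genes were higher and 2 lower, and 2 of 19 uptake genes higher and 2 lower. Over all genes 6.87% were higher and 8.35% lower.

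After culture the strains differed at more members. With PBS 6 were higher and 4 lower in NOD, 28.6% of the members against 10.7% of all genes (5.43% higher, 5.28% lower). With LPS 3 were higher and 5 lower, 22.9% against 10.6% (5.21% higher, 5.43% lower). These comparisons share no arrays, although PBS and LPS cultures of the same number correlate. Without the less bright probe sets, the share of all genes called was larger, 18.1% with PBS and 19.7% with LPS.

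**Figure D4:**
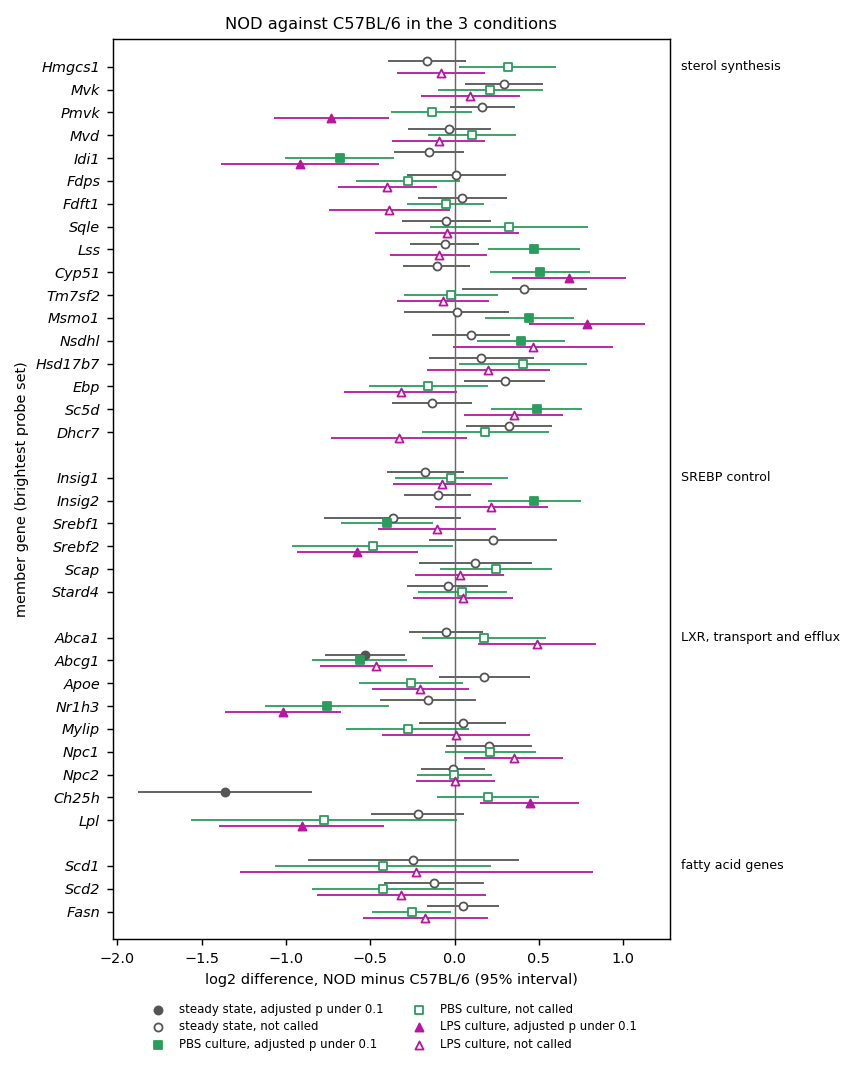
Log2 difference of NOD minus C57BL/6 for the 35 members, grouped by role, at steady state (circles), after PBS culture (squares) and after LPS culture (triangles), with 95% confidence intervals and filled marks for calls at an adjusted p under 0.1. Cyp51 and Msmo1 lie right of 0, and Idi1 and Nr1h3 left of 0, in both cultures.

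The genes higher in NOD after PBS were Cyp51, Sc5d, Lss, Msmo1 and Nsdhl of synthesis and Insig2 of SREBP control, by 0.39 to 0.51 log2 units. Other synthesis genes, among them Sqle, Tm7sf2, Hsd17b7, Ebp and Dhcr7, were not called, and in SREBP control Srebf1 was called lower. Cyp51 read 9.38, 9.45, 9.63 and 9.29 in C57BL/6 and 9.76, 9.77, 10.23 and 10.01 in NOD with PBS. With LPS it read 9.12, 9.49 and 9.02 against 9.65, 9.92, 10.09 and 9.90. NOD was above C57BL/6 without overlap in both, by 0.51 (SE 0.14, limma adjusted p = 0.0463) and 0.68 (SE 0.15, adjusted p = 0.0256). Msmo1 was higher by 0.44 (SE 0.12, adjusted p = 0.0509) with PBS and by 0.78 (SE 0.15, adjusted p = 0.0134) with LPS, where it read 8.09, 8.76 and 8.47 against 9.24, 9.25, 9.23 and 9.18. With PBS the call of Cyp51 was lost without C57BL/6 PBS replicate 1 or 4 or NOD PBS replicate 3 or 4. That of Msmo1 was lost without C57BL/6 PBS replicate 2 or 4 or NOD PBS replicate 1 or 2. The probe sets of these genes disagreed. One dimmer set of Cyp51 was called higher in both cultures (0.63 and 0.71), the other was not called in either (-0.35 with PBS and 0.34 with LPS), and the other set of Msmo1 differed by 0.09 in both and was not called.

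Among all members, 9 of 37 further probe sets differed in call from the brightest one in the strain comparison with PBS and 7 with LPS. With PBS the further sets of Lss (0.34 and -0.02), Sc5d (0.45 and 0.36), Insig2 (0.38 and 0.46) and Abcg1 (-0.47) were not called. With LPS 1 further set each of Abca1 (0.52, limma adjusted p = 0.0339) and Sc5d (0.46, adjusted p = 0.0394) were called higher and one of Fdft1 lower (-0.67, adjusted p = 0.0651), where the brightest sets (0.49, 0.35 and -0.39) were not called. Those of Lpl (-0.53) and Srebf2 (-0.43) were not called with LPS, although the brightest were.

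Idi1, which interconverts the isoprene building blocks, was lower in NOD. It read 10.03, 10.27, 10.58 and 9.98 in C57BL/6 and 9.45, 9.43, 9.52 and 9.73 in NOD with PBS, and 10.60, 11.25 and 10.34 against 10.06, 9.74, 9.53 and 9.92 with LPS. The groups did not overlap, and the differences were -0.68 (SE 0.15, limma adjusted p = 0.0170) and -0.92 (SE 0.21, adjusted p = 0.0287). The other probe set of Idi1 was called lower as well (-0.82 and -1.13). Pmvk, phosphomevalonate kinase, was lower with LPS (-0.73, SE 0.15, adjusted p = 0.0188), with 10.74, 10.59 and 10.35 in C57BL/6 and 9.91, 9.93, 9.49 and 9.98 in NOD.

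Nr1h3 was lower in NOD in both cultures. With PBS it read 11.87, 11.68, 12.42 and 11.67 in C57BL/6 and 11.35, 11.11, 11.01 and 11.17 in NOD, and with LPS 11.57, 11.88 and 11.46 against 10.71, 10.61, 10.33 and 10.82. All NOD arrays were below all C57BL/6 arrays, with differences of -0.75 (SE 0.17, limma adjusted p = 0.0197) and -1.02 (SE 0.15, adjusted p = 0.00338). Abcg1 was lower with PBS (-0.56, SE 0.13, adjusted p = 0.0226), as at steady state, and with LPS its difference of -0.46 (adjusted p = 0.111) was not called, though the groups did not overlap (11.75, 12.00 and 11.98 against 11.40, 11.53, 11.72 and 11.14). Srebf1 was lower with PBS (-0.40, adjusted p = 0.0861), a call lost without any of 7 of the 8 arrays.

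With LPS Lpl (-0.91, SE 0.22, limma adjusted p = 0.0366) and Srebf2 (-0.58, SE 0.16, adjusted p = 0.0643) were lower and Ch25h higher (0.44, SE 0.13, adjusted p = 0.0798) in NOD. With the replicate number as a block Lpl (adjusted p = 0.129) and Srebf2 (adjusted p = 0.118) were not called. Ch25h read 12.72, 12.79 and 12.74 in C57BL/6 and 12.94, 13.23, 13.42 and 13.18 in NOD, the opposite order to steady state. This call was lost (adjusted p from 0.150 to 0.176) without any of 6 of the 7 arrays.

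The strain difference after PBS rests on calls near the threshold. Every gene called higher in NOD with PBS lost its call with 1 array or another left out. Leaving out NOD PBS replicate 4 left 5 calls of which 4 were among the 10, and leaving out C57BL/6 PBS replicate 1 or 2 left 6 each. Markers moved as well. Of 11 macrophage markers Cd163 and Mrc1 were higher in NOD in both cultures, and 3 were lower with PBS and 4 with LPS. Of 10 conventional DC markers 3 were lower and 1 higher with PBS and 4 lower with LPS. Of 3 B cell markers 2 were lower with PBS and 1 with LPS (medians of -1.21), and Ncr1, an NK cell receptor, was lower in both. Their part in the strain differences was not tested. From the wider lists Rxra, the partner of LXR, was higher in NOD by 1.02 with PBS and 1.13 with LPS, and Mid1ip1, which activates acetyl-CoA carboxylase, by 1.20 and 1.40. Pparg was lower (-0.76 and -0.81).

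Whether culture acted differently by strain was tested directly over steady state and PBS arrays, the same arrays as in the comparisons above. Of 35 members 5 were called, all with a more positive change in NOD, 14.3% against 7.81% of all genes (4.91% more positive, 2.89% more negative). Without the less bright probe sets, 13% of all genes were called in this test. The 5 members were Ch25h (1.56, SE 0.28, limma adjusted p = 0.00313), Sc5d (0.62, adjusted p = 0.0348), Cyp51 (0.61, adjusted p = 0.0412), Insig2 (0.57, adjusted p = 0.0414) and Lss (0.53, adjusted p = 0.0625). For Ch25h the difference came with a lower steady state level in NOD and cultured levels that were not called different (12.7 to 12.8 in C57BL/6 and 12.7 to 13.3 in NOD). For Cyp51, Sc5d, Insig2 and Lss the steady state levels of the brightest probe sets were not called different and the PBS levels were higher in NOD. For example, Sc5d read 9.21, 9.43, 9.37 and 9.57 in C57BL/6 and 9.27, 9.33 and 9.19 in NOD at steady state, and 9.08, 9.20, 8.86 and 9.16 against 9.39, 9.50, 9.62 and 9.73 with PBS. Averaged over their probe sets, Sc5d (0.01), Cyp51 (0.67) and Lss were not called, and no other probe set of Sc5d, Cyp51, Insig2 or Lss was called by itself. None of the 5 was called with the replicate block (adjusted p from 0.110 for Ch25h to 0.540 for Sc5d), where the estimates were 1.08 for Ch25h and 0.65 for Cyp51. That fit called 1.68% of all genes. It rests on the 2 numbers per strain that steady state and PBS share, so a lost call there cannot decide these results. The calls of Sc5d, Insig2 and Lss were lost without NOD steady state replicate 6, and those of Cyp51 and Lss without NOD steady state replicate 4. That of Lss was also lost without C57BL/6 steady state replicate 5 or 6, C57BL/6 PBS replicate 2 or 3, or NOD PBS replicate 1 or 4.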

How the data were processed

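RNA of sorted CD11c+CD8α- DCs was amplified and hybridized to whole-genome arrays. The authors normalized the arrays with RMA in BRB-ArrayTools, and the deposited values are log2 expression per probe set. RMA aligns the distributions of the arrays, so a shift shared by most genes is not seen. Groups and replicate numbers came from the sample titles, and all 22 arrays were used. The table holds 45101 probe sets, of which 64 AFFX spike-in and control sets were dropped.

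For every comparison limma 3.58.1 (R 4.3.3) was run without pairs or intensity filter on the arrays of the groups compared. All 45037 remaining probe sets entered the Benjamini-Hochberg adjustment, and 0.1, the false discovery level of the study, was the threshold. The study's multivariate permutation test was not run here. The interactions were fitted over the 4 groups each concerns. Each of 18193 genes was read from 1 probe set, the brightest of those assigned to no other gene, and the other probe sets of the members were tested in the same fit. The named genes were up to 4 called members with the largest rise and up to 4 with the largest fall in each comparison, and the control points Hmgcs1, Sqle, Insig1, Srebf1, Srebf2, Abca1, Abcg1, Apoe, Mylip, Ch25h, Nr1h3, Scd1 and Scd2. Others were named after their values were seen. The members and lists were chosen with earlier results of these data known. Promoter windows (GRCm38.p6) were found for 29 of the 38 genes and searched with Python 3.11.15. The code was tested on simulated data.

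The results were recomputed with a threshold of 0.05, without the less bright probe sets (those at or below the median mean), with a joint fit of all 22 arrays, subtraction of array medians, a spread fitted robustly with an intensity trend, the replicate number as a block, every array removed in turn, and all probe sets of a gene averaged. Residuals of arrays with equal numbers correlated above 0.1 in every pair between strains (0.109 to 0.433 at steady state, 0.137 to 0.320 with PBS, 0.114 to 0.345 with LPS) and between LPS and PBS (0.259 to 0.423 in C57BL/6, 0.241 to 0.487 in NOD), so those numbers were taken as pairs. PBS culture and steady state share only 2 numbers per strain and were not. The labels do not say what arrays of equal number share, and between strains the mice differ.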

Additional observations from a re-analysis of the deposited data

Results flagged for a closer look

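In 8 of 140 groups of 4 arrays, 1 array lay far from the other 3 by Dixon’s criterion. Chance gives about 1 in 20. They were Mvk on NOD LPS replicate 2 (9.56, others 9.27 to 9.30), Pmvk on NOD LPS replicate 3 (9.49, others 9.91 to 9.98), Nsdhl on NOD PBS replicate 3 (8.65, others 8.86 to 8.89) and Scap on C57BL/6 PBS replicate 4 (8.75, others 8.23 to 8.28). The same C57BL/6 PBS array stood apart for Scd2 (6.53, others 6.19 to 6.23) and Fasn (9.18, others 8.89 to 8.92). C57BL/6 steady state replicate 6 stood apart for Apoe (13.68, others 14.06 to 14.11) and Npc1 (11.54, others 11.29 to 11.33).

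The change with culture differed between the strains, by the interaction in limma, for Ch25h (1.56, adjusted p = 0.00313), Sc5d (0.62, adjusted p = 0.0348), Cyp51 (0.61, adjusted p = 0.0412), Insig2 (0.57, adjusted p = 0.0414) and Lss (0.53, adjusted p = 0.0625), each more positive in NOD than in C57BL/6. None of the 5 was called with the replicate block (adjusted p from 0.110 to 0.540, with 1.08 for Ch25h), and Sc5d averaged over its probe sets gave 0.01. The block fit called 1.68% of all genes and rests on 2 shared numbers per strain, so it cannot decide these results.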

How the results depend on the processing

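Of 2202 values of named genes under alternatives, 2108 kept their side of the threshold, 52 lost a call, 42 gained one and none changed sign while called. Values called in neither fit count among the 2108 even if their sign changed. The counts of members called in both culture comparisons stayed within 1.5 times under every alternative run (leave-one-out 33 in each case in C57BL/6, and 27 to 31 in NOD, against 33 and 30). The cause of the following changes was not tested, and the percentages are the shares of all genes called under the same setting. At steady state the 2 strain calls became 5 without the less bright probe sets (20.7%), 5 with the replicate block (20.4%), 4 with all probe sets of a gene averaged, and 2 to 4 with 1 array left out (4 without NOD steady state replicate 1). After PBS culture the 10 strain calls became 5 to 8 with 1 array left out, 6 without C57BL/6 PBS replicate 1 or 2 and 5 without NOD PBS replicate 4. After LPS culture the 8 strain calls became 14 in 1 fit of all 22 arrays (14.6%) and 6 to 8 with 1 array left out. For LPS in C57BL/6, 0 calls became 4 without the less bright probe sets (4.45%), 6 in 1 fit of all arrays (4.93%), 3 with the intensity trend (3%), 2 with the block (2.41%) and 0 to 1 with 1 array left out (1 without C57BL/6 PBS replicate 2). For LPS in NOD, 2 calls became 1 at an adjusted p under 0.05 (2.74%), 4 in 1 fit of all arrays (6.99%), 6 with the block (10.4%) and 1 to 2 with 1 array left out (1 without NOD PBS replicate 1 or 4 or NOD LPS replicate 2 or 3). The 5 calls of strain by culture became 0 with the block (1.68%) and 2 to 7 with 1 array left out (3 and 2 without NOD steady state replicate 4 and 6, 7 without replicate 1). The strain by LPS test gave 0 throughout, with 3 of 35 members and 3.44% of all genes at an unadjusted p under 0.05.

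With the replicate block, beside the changes given with the results, Hsd17b7 after PBS and Fdps after LPS gained a strain call. In culture, where numbers do not pair, 32 members in C57BL/6 (60.4% of all genes) and 27 in NOD (56.9% of all genes) were called. A gene near the lower quartile of the arrays, such as Scd2 in culture, has a fold change that brightness limits.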
